A study of Mus with 4 samples.

Results

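Expression of 6 genes that carry fatty acids out of the blood and across the capillary wall of the heart was examined in newborn mice with raised endothelial miR-187. The 6 genes, *Fabp4*, *Fabp5*, *Cd36*, *Lpl*, *Gpihbp1* and *Slc27a1*, were taken by Ensembl gene ID, with the version suffix dropped, from a table of 55487 IDs. All 6 were found, and all 6 passed the filter on low values used for testing (1 FPKM or more on average over the libraries). The table held 4 RNA-seq libraries of heart tissue at postnatal day 0 (P0), with 2 in the WT group and 2 in the miR-187 group. In the study, the miR-187 line was made in C57BL/6J mice by CRISPR/Cas9 insertion of mmu-miR-187 at the Rosa26 locus, with the *Tek* (*Tie2*) promoter to direct it to endothelial cells. The methods name homozygous knock-in (KI/KI) and WT pups for RNA-seq, whereas the labels state neither zygosity nor whether a library came from a single pup or from pooled pups. The methods also speak of cardiac endothelial cells where the labels name the heart, and the wording of the labels is followed here. Because the labels do not say that libraries of a group came from separate animals, p-values measure only the spread between these libraries.

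The newborn heart changes its fuel at birth, from mainly glucose and lactate to fatty acids that arrive with milk. Triglyceride in lipoproteins is too large to leave the capillary, so it is first cut by lipoprotein lipase, the product of *Lpl*. Muscle cells make and secrete the lipase, and GPIHBP1 on the endothelial cell picks it up, carries it to the lumen and holds it there. The released fatty acids cross the endothelial cell with the help of CD36 and fatty acid transport proteins in the membrane and of the soluble fatty acid binding proteins FABP4 and FABP5. These genes are therefore not all markers of the same cell. *Gpihbp1* and *Fabp4* are largely capillary endothelial in the heart, *Lpl* is largely a product of cardiomyocytes, and *Cd36* is used by both cell types. In whole tissue, fewer cells of a type and less RNA per cell cannot be told apart.

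Positions are from RefSeq on GRCm38.p6, the assembly also called mm10. *Fabp5* (ENSMUSG00000027533.10) lies on chromosome 3 at 10012585 to 10016610, and *Fabp4* (ENSMUSG00000062515.3) on the same chromosome at 10204342 to 10208616. They are 187.7 kb apart, with 4 RefSeq genes between them that include 2 further members of the same family, *Pmp2* and *Fabp9*. *Lpl* (ENSMUSG00000015568.16) is on chromosome 8 at 68880555 to 68906932, and *Slc27a1* (ENSMUSG00000031808.7) is farther along that chromosome at 71568728 to 71587307. *Cd36* (ENSMUSG00000002944.15) is on chromosome 5 at 17781690 to 17888959 and *Gpihbp1* (ENSMUSG00000022579.10) on chromosome 15 at 75596630 to 75598213. RefSeq gave 0 genes overlapping any of them. It did give a *Fabp5* pseudogene, *Fabp5l2*, so reads of the parent gene and its copy may have been split and the level of *Fabp5* carries that uncertainty.

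The values were FPKM, fragments per kilobase of transcript scaled to the mapped fragments of the library, and the read depth of the libraries is unknown. Some features separated the libraries without regard to group. An ID with the highest mean in the table took 18.5% and 21.0% of summed FPKM in WT and miR-187 replicate 1, against 4.45% and 3.03% in the second replicates. Among 32848 IDs with a mean below 0.5 FPKM, the mean lay between 0.151 and 0.372 FPKM and was higher in the replicate 1 library of each group. MiR-187 replicate 2 had 16 IDs of at least 10 FPKM that exceeded every other library by at least 10 times, and the other libraries had between 0 and 4. The part of these features in the results below was not tested. The log2 difference of each gene was also computed with each library left out in turn. Other genes could not be named from the table, so markers of heart, endothelial or other cell types, and the genotype, were not checked.

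The 6 genes spanned a wide range of expression, and FPKM allows levels of different genes to be set side by side because it is per length. *Fabp4* was by far the most abundant, with a mean of 1664 FPKM over the 4 libraries, and ranked 41 among all IDs. *Fabp5* followed with 312 FPKM, *Gpihbp1* with 298 FPKM, *Cd36* with 156 FPKM, *Lpl* with 61.6 FPKM and *Slc27a1* with 9.07 FPKM. *Fabp5* and *Gpihbp1* could not be ordered, since their ranges across libraries (279 to 338 FPKM and 246 to 343 FPKM) overlapped and *Gpihbp1* was the higher of them in miR-187 replicate 2. The ranges of *Cd36* and *Lpl* also overlapped, although *Cd36* was higher within every library, by 1.56 to 4.22 times. All other neighbours in this order had separate ranges. Together the 6 genes made up between 0.282% and 0.350% of summed FPKM, and *Fabp4* alone made up 60.8% to 71.3% of their sum.

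**Figure D1:**
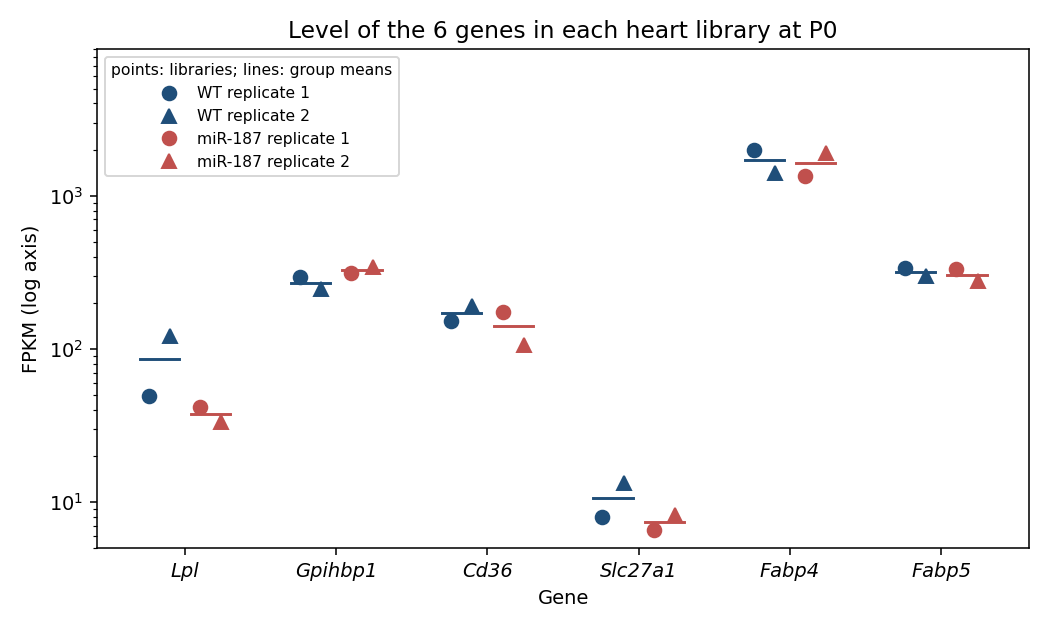
FPKM of the 6 genes (log axis) in each library, with WT in blue, miR-187 in red, circles for replicate 1, triangles for replicate 2 and lines at the group means. *Lpl* has its 4 points in the widest spread, from 33.2 to 122 FPKM, and the WT replicate 2 point stands highest.

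To ask whether raised miR-187 went with a change in these genes, the groups were compared in a single fit across 14325 genes. Of the 6 genes, 0 passed a Benjamini-Hochberg adjusted p of 0.05 in limma, where 0.00698% of all genes tested did. At an unadjusted p under 0.05 there was 1 of 6, *Lpl*, where 3.12% of all genes tested were under that value. Differences are given below as miR-187 minus WT on the log2(FPKM + 1) scale. The median difference was -0.19 for the 6 genes, -0.04 for all genes tested and -0.03 for the 3737 genes averaging 10 FPKM or more. By sign alone, 5 of 6 had a lower mean in miR-187, against 55.7% of genes tested. This count was 3 of 6 with quantile normalization, with trimmed mean of M-values (TMM) factors over all IDs, without WT replicate 1 and without miR-187 replicate 2, and 4 of 6 without miR-187 replicate 1. The groups did not overlap for 2 of 6, *Lpl* and *Gpihbp1*, against 25.5% of genes tested.

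*Lpl*, which encodes the lipase itself, had lower values in both miR-187 libraries and the largest difference of the 6 genes, but it did not pass the adjusted test and the size of the difference rested on the library WT replicate 2. WT replicate 1 had 49.7 FPKM and WT replicate 2 had 121.8 FPKM, while miR-187 replicates 1 and 2 had 41.6 and 33.2 FPKM. The groups did not overlap, and WT replicate 2 stood well above the other libraries, while WT replicate 1 was 1.19 times the nearer miR-187 value. Groups apart in this direction were found for 13.2% of genes tested. Mean FPKM was 85.7 ± 51.0 (SD, n = 2) for WT and 37.4 ± 5.88 (SD, n = 2) for miR-187. This gave a log2 difference of -1.05 (standard error 0.45, 95% interval -1.97 to -0.12), with a limma adjusted p of 0.9997. That is 2.07-fold lower on this scale, and 0.817% of genes tested were at least 2-fold lower. The unadjusted limma p was 0.0285, and it was 0.0514 with median centring and 0.0563 with TMM (trimmed mean of M-values) factors between libraries. With TMM factors over all IDs, an alternative chosen after seeing the data, it was 0.3002 and the groups overlapped.

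The WT libraries themselves differed in *Lpl* by 2.45 times, or 1.28 on the log2 scale, which exceeded the difference between groups. Of the 3737 genes averaging 10 FPKM or more, 5.62% had a gap between the WT libraries at least as large. Without WT replicate 2 the log2 difference of *Lpl* was -0.41. Without WT replicate 1 it was -1.69 with a limma adjusted p of 0.0522, the lowest for any of the 6 genes under any alternative. Leaving out miR-187 replicate 1 or 2 gave -1.20 and -0.89. In each of these fits the lone library of a group was assumed to vary as the other libraries do.

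*Gpihbp1*, whose product anchors the lipase on the capillary wall, was the only gene of the 6 with a higher mean in miR-187 in the values as deposited, whereas *Fabp4* and *Fabp5* also had one with quantile normalization. The WT libraries gave 293 and 246 FPKM, and the miR-187 libraries gave 311 and 343 FPKM. The groups did not overlap, but by a small margin, with the lower miR-187 value 1.06 times the higher WT value. Groups apart in this direction were found for 12.3% of genes tested. Mean FPKM was 269 ± 33.8 (SD, n = 2) for WT and 327 ± 22.3 (SD, n = 2) for miR-187. This gave a log2 difference of 0.28 (standard error 0.43, interval -0.60 to 1.17), with a limma adjusted p of 0.9997. The interval reached from 0.659-fold to 2.24-fold, so a difference of either direction was within the error. It was 0.16 without WT replicate 2, 0.41 without WT replicate 1, 0.35 without miR-187 replicate 1 and 0.21 without miR-187 replicate 2. With median centring or with TMM factors, the groups overlapped.

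Because the lipase acts where its anchor holds it, the ratio of *Lpl* to *Gpihbp1* was taken within each library, where scaling of the library cancels. It was 0.169 and 0.496 in WT and 0.133 and 0.0969 in miR-187. In the values as deposited, *Lpl* was lower and *Gpihbp1* higher in both miR-187 libraries. For those values the ratio could not overlap between groups, and its separation adds nothing to the levels of the 2 genes. With TMM factors the groups overlapped for *Gpihbp1*, whereas the ratio does not depend on such factors. The value in WT replicate 2 was again far from the others. Ratios to *Gpihbp1* that were lower in both miR-187 libraries than in both WT libraries were found for 28.1% of genes tested, so this pattern was common. Of the 15 ratios between pairs of the 6 genes, the groups were apart for 6, each of which involved *Lpl* or *Gpihbp1*. Over all pairs of genes tested with no value of 0, the groups were apart for 27.8%, and the 15 ratios share genes and are not independent of each other. The mean ratio of *Lpl* to *Gpihbp1* was 0.333 ± 0.231 in WT and 0.115 ± 0.0259 in miR-187 (SD, n = 2 each). On the log2 scale the WT libraries differed from each other by 1.55, and the groups differed by -1.35, so the difference between groups did not exceed the spread within WT. The ratios were not tested and are given as a description.

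**Figure D2:**
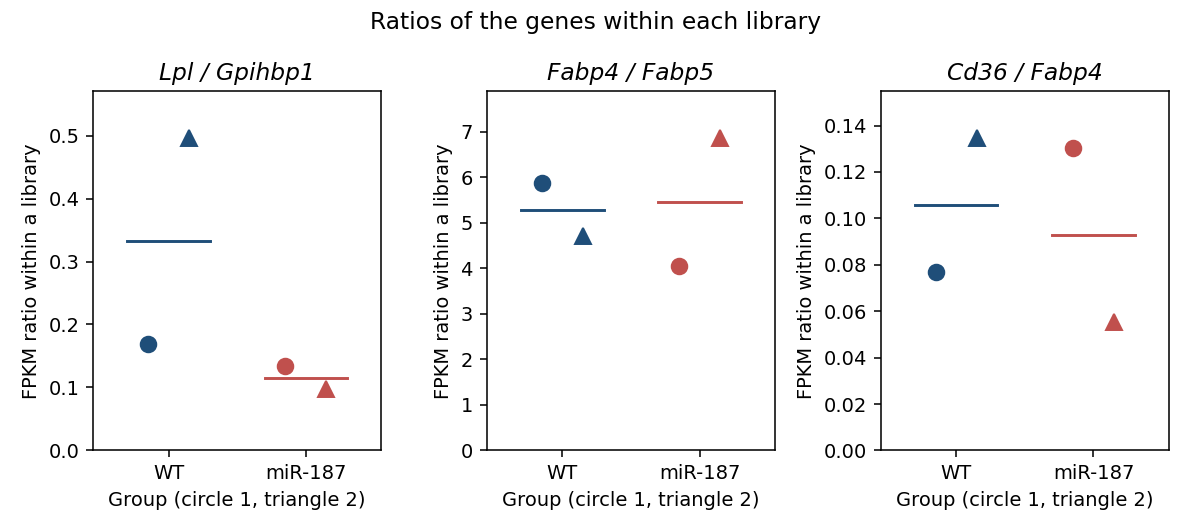
Ratio of FPKM within each library for *Lpl* to *Gpihbp1*, *Fabp4* to *Fabp5* and *Cd36* to *Fabp4*, with WT in blue, miR-187 in red, circles for replicate 1, triangles for replicate 2 and lines at the group means. The groups are apart in the first panel, where WT replicate 2 is at 0.496, and overlap in the other panels. Groups were apart for 6 of the 15 ratios between the 6 genes and for 27.8% of ratios over all pairs of genes tested with no value of 0.

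The membrane proteins came next. CD36, also called fatty acid translocase, takes up long-chain fatty acids at the surface of endothelial and muscle cells. *Cd36* was at 153 and 189.9 FPKM in the WT libraries and at 175 and 106 FPKM in the miR-187 libraries. The groups overlapped, since miR-187 replicate 1 lay between the WT libraries, and miR-187 replicate 2 was the lowest. Mean FPKM was 171 ± 26.1 (SD, n = 2) for WT and 141 ± 49.0 (SD, n = 2) for miR-187. This gave a log2 difference of -0.32 (standard error 0.43, interval -1.22 to 0.58), with a limma adjusted p of 0.9997. It was 0.04 without miR-187 replicate 2 and -0.68 without miR-187 replicate 1, so the lower miR-187 mean was present only with miR-187 replicate 2 in the fit.

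*Slc27a1* encodes FATP1, a membrane protein that takes up fatty acids and couples them to coenzyme A. It was the least abundant of the 6, at 7.97 and 13.4 FPKM in the WT libraries and at 6.63 and 8.28 FPKM in the miR-187 libraries. The highest value was that of WT replicate 2, and the remaining WT value lay between the miR-187 values. Mean FPKM was 10.7 ± 3.86 (SD, n = 2) for WT and 7.45 ± 1.16 (SD, n = 2) for miR-187. This gave a log2 difference of -0.43 (standard error 0.38, interval -1.22 to 0.35), with a limma adjusted p of 0.9997. Without WT replicate 2 it was -0.09, and without WT replicate 1 it was -0.78. Leaving out miR-187 replicate 1 or 2 gave -0.29 and -0.57.

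The soluble carriers, which include the most abundant gene of the 6, had the smallest differences between groups in the values as deposited. This order did not hold with quantile normalization, without WT replicate 2 or without miR-187 replicate 2. FABP4, known also from adipocytes and macrophages, binds fatty acids in the cytoplasm of capillary endothelial cells. *Fabp4* was at 1987 and 1412 FPKM in the WT libraries and at 1343 and 1914 FPKM in the miR-187 libraries. Each group held a high and a low library, and the ranges almost coincided. Mean FPKM was 1699 ± 407 (SD, n = 2) for WT and 1628 ± 404 (SD, n = 2) for miR-187. This gave a log2 difference of -0.06 (standard error 0.45, interval -0.995 to 0.87), with a limma adjusted p of 0.9997. The interval ran from 0.502-fold to 1.83-fold, so a difference in either direction was within the error. The direction depended on the library left out, with -0.32 when miR-187 replicate 2 was omitted and 0.19 when miR-187 replicate 1 was omitted, and it was 0.24 with quantile normalization.

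FABP5, the epidermal member of the family, accompanies FABP4 in capillary endothelium. *Fabp5* was the steadiest of the 6, at 338 and 300.2 FPKM in the WT libraries and at 331 and 279 FPKM in the miR-187 libraries. Its highest value was 1.21 times its lowest, and the groups overlapped. Mean FPKM was 319 ± 26.9 (SD, n = 2) for WT and 305 ± 36.8 (SD, n = 2) for miR-187. This gave a log2 difference of -0.07 (standard error 0.43, interval -0.95 to 0.82), with a limma adjusted p of 0.9997. The direction turned with quantile normalization, which gave 0.16, and depended on the library left out, with -0.19 when miR-187 replicate 1 was omitted, 0.018 when WT replicate 1 was omitted and 0.055 when miR-187 replicate 2 was omitted. The ratio of *Fabp4* to *Fabp5* within libraries was 5.87 and 4.70 in WT and 4.06 and 6.86 in miR-187, with overlapping groups and means of 5.29 ± 0.828 and 5.46 ± 1.98 (SD, n = 2 each).

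**Figure D3:**
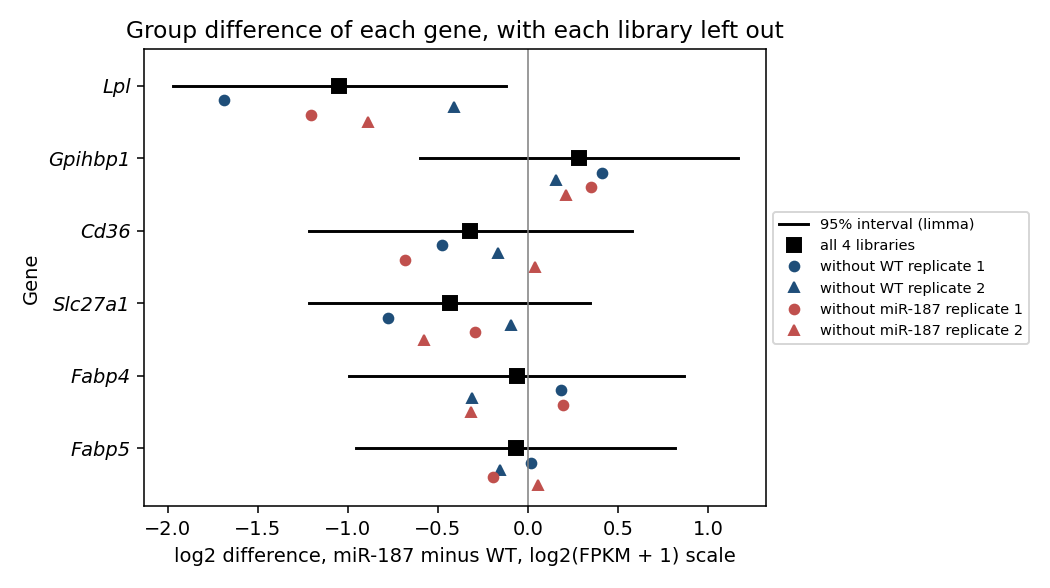
Difference between groups for each gene (miR-187 minus WT, log2(FPKM + 1) scale), with a black square and 95% limma interval for all 4 libraries and coloured points for fits that leave out the named library. The interval of *Lpl*, from -1.97 to -0.12, is the only one that leaves out 0, before adjustment for the genes tested, and the signs of *Cd36*, *Fabp4* and *Fabp5* depend on the library left out.

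The spread of the 6 genes was not alike across libraries. *Lpl*, *Cd36* and *Slc27a1* each had their highest value in WT replicate 2, as did 43.6% of the 3737 genes averaging 10 FPKM or more. *Fabp4* and *Fabp5* had theirs in WT replicate 1, and *Gpihbp1* had its highest value in miR-187 replicate 2. The ratio of *Cd36* to *Fabp4* moved within each group, with 0.0770 and 0.135 in WT and 0.130 and 0.0553 in miR-187. These genes thus showed no shared course over the libraries. The gap between the WT libraries exceeded the difference between groups for 4 of 6 genes, and the gap between the miR-187 libraries did so for 3 of 6.

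Likeness of pattern was measured as the root mean square difference of centred log2(FPKM + 1) over the 4 libraries. A smaller value means closer centred values, and genes that vary little can be near each other though their courses differ. The nearest pair among the 6 genes was *Fabp5* with *Gpihbp1*, at 0.22. The highest value was only 1.21 times the lowest for *Fabp5* and 1.40 times for *Gpihbp1*. Their courses differed, since *Fabp5* was lowest in miR-187 replicate 2 (279 FPKM), where *Gpihbp1* was highest (343 FPKM). Of 3732 other genes averaging 10 FPKM or more, 20.5% were at least as near to *Fabp5* and 17.1% to *Gpihbp1*. The most distant pair was *Lpl* with *Gpihbp1*, at 0.87. *Slc27a1* was the nearest of the group to *Lpl*, at 0.43, with 11.8% of those genes at least as near to *Lpl* and 63.8% to *Slc27a1*. For *Fabp4* the nearest of the group was *Gpihbp1*, at 0.23, with 11.0% of those genes at least as near to *Fabp4* and 18.9% to *Gpihbp1*. The gene whose pattern was most like that of *Lpl* was ENSMUSG00000020321.16, at a distance of 0.03, with levels of 269.9 and 691 FPKM in the WT libraries and of 237 and 190.1 FPKM in the miR-187 libraries. The next was ENSMUSG00000047844.3, at 0.07, with levels of 10.4 and 24.5 FPKM in the WT libraries and of 8.75 and 7.08 FPKM in the miR-187 libraries. The table pairs no names with these IDs. The likeness rests on 4 libraries and is a description only.

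**Figure D4:**
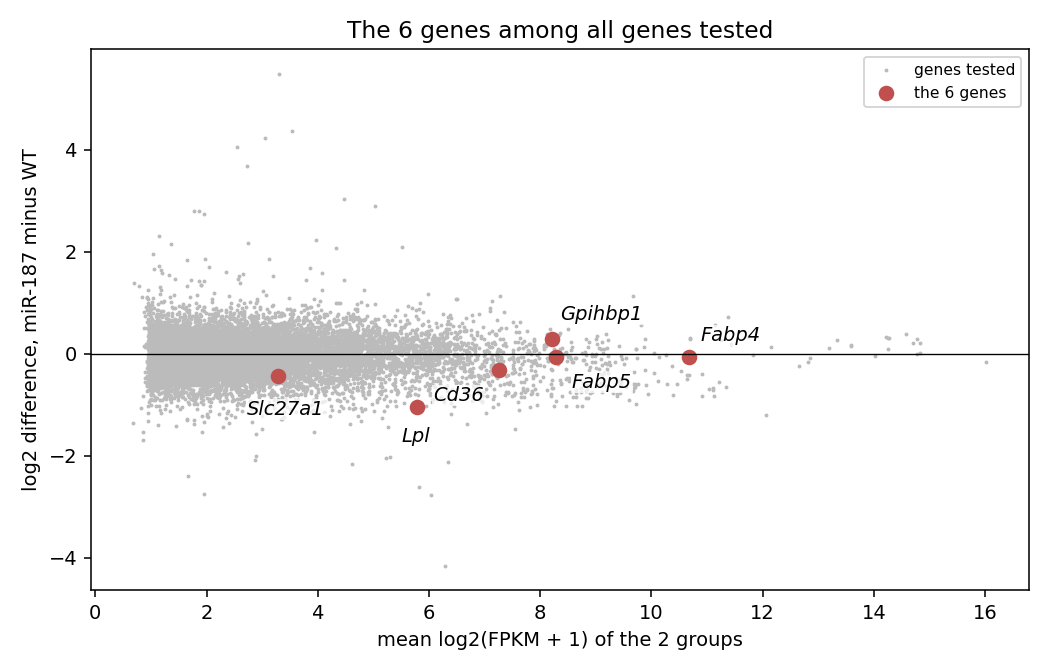
Difference between groups (miR-187 minus WT, log2(FPKM + 1) scale) against the mean level for the 14325 genes tested (grey) and the 6 genes (red). *Fabp4*, *Fabp5*, *Cd36*, *Gpihbp1* and *Slc27a1* lie within the body of the grey points, and *Lpl*, at -1.05, lies at its lower edge.

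The size of the differences was also set against that of the 3737 genes averaging 10 FPKM or more, which were not matched on level and leave out *Slc27a1*. Of these, 86.6% had a difference at least as large in size as that of *Fabp4*, 85.2% as that of *Fabp5*, 42.5% as that of *Gpihbp1*, 37.0% as that of *Cd36* and 24.6% as that of *Slc27a1*. For *Lpl* the share was 1.87%. These shares describe size and take no account of the spread between replicates.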

How the data were processed

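Hearts of WT and miR-187 mice at P0 were profiled by RNA-seq, with 2 libraries per group. The authors deposited FPKM values for 55487 Ensembl gene IDs in a single table. The submitters' processing notes name HISAT2, StringTie, DESeq2 and the build mm10, while versions, annotation and use of strand were not given in the sources used here. FPKM holds no counts, so depth-based intervals and detection limits could not be given.

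The 14325 IDs that averaged 1 FPKM or more were tested on the log2(FPKM + 1) scale. The linear model of limma 3.58.1 (R 4.3.3) was used, with moderated variances that follow a trend in mean level and with no replicate block. This pseudocount understates changes of low genes. P-values were two-sided and Benjamini-Hochberg adjusted over all genes tested, with a threshold of 0.05. The procedure was tested on simulated data. Figures used matplotlib 3.10.9 and Python 3.11.15.

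The members and lists were chosen with earlier results of these data known. All members were named. For each, the 2 non-members of at least 10 FPKM with the nearest pattern were found. Only those of *Lpl* are printed, and those of the other members are left out. Such IDs could not be named from the sources used here: of 49997 RefSeq rows, 0 held an Ensembl ID, and the 6 members were matched by symbol. Lists of other pathway genes (lipase handling, lipoprotein receptors, other binding and transport proteins, endothelial regulators, lipid droplets) and of cell type markers were therefore not analysed here, nor was sequence printed. Alternatives were another pseudocount, other filters, median centring, TMM factors (unweighted, 30% and 5% trimmed, over the genes tested), quantile normalization, a replicate block, moderation with no trend, and fits that omitted each library.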

Additional observations from a re-analysis of the deposited data

How the results depend on the processing

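Of the 14 alternatives, 5 (the other filters, no trend and the replicate block) leave each log2 difference as it is. Under the remaining 9, 45 of 54 values for the 6 genes kept their direction, and under all 14 the adjusted p was under 0.05 for 0. *Lpl*, *Gpihbp1* and *Slc27a1* kept theirs under all 9. *Fabp4* turned to 0.24 with quantile normalization and to 0.034 with TMM factors over all IDs (an alternative chosen after seeing the data). *Fabp5* turned to 0.16 and 0.028 under the same alternatives. Leaving out WT replicate 1 turned *Fabp4* to 0.18 and *Fabp5* to 0.018, leaving out miR-187 replicate 1 turned *Fabp4* to 0.19, and leaving out miR-187 replicate 2 turned *Fabp5* to 0.055 and *Cd36* to 0.040. With a library left out, the log2 difference ran from -0.32 to 0.19 for *Fabp4*, from -0.19 to 0.055 for *Fabp5* and from -0.68 to 0.040 for *Cd36*. TMM factors moved all 12 group means by less than 1 SD. For *Fabp4* they turned the order of the mean FPKM, to 1677 in WT and 1684 in miR-187, while its log2 difference was -0.022.

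Over all genes, 0 were higher and 1 lower in miR-187. A minimum mean of 0.1 FPKM gave 31 and 15, and TMM factors over all IDs gave 30 and 9; the cause was not tested. A minimum mean of 5 FPKM, no filter and quantile normalization gave 0 lower. Leaving out a library gave from 11 to 62 higher and from 14 to 56 lower; 62 came without miR-187 replicate 1 and 56 without WT replicate 1. In these fits, and with the minimum mean of 0.1 FPKM, TMM factors over all IDs and the replicate block, limma estimated infinite prior degrees of freedom.

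With the replicate block, 33 genes were called higher and 18 lower, and the call changed for 0 of the 6 genes. Deviations of same-numbered libraries correlated across the 14325 genes tested with r = -0.0675. The ID with the highest mean and the IDs below 0.5 FPKM did differ by replicate number in both groups, as given above. No label ties a number to a litter or batch. For want of such a label the libraries were not treated as paired, and an effect shared by replicate number is not excluded.

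Ratios to endothelial marker genes were not run, as the RefSeq list used here held no Ensembl IDs by which to match the markers. Values hold no counts, so limits set by depth are not given.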
